A study of Mus musculus with 2 samples.

Results

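The 10 genes described here are 4 Wnt ligands (Wnt5a, Wnt7a, Wnt7b and Wnt8b), 5 Frizzled receptors (Fzd1, Fzd3, Fzd5, Fzd8 and Fzd9) and Axin2, taken by their symbols from the 32285 genes of the deposited matrices. They were measured by droplet single-cell RNA sequencing (10x Genomics, 3′ end counting) in the dissociated cerebral cortex of E16.5 (embryonic day 16.5) mice. The 2 libraries were both wild type (WT) and came from control animals of an Eomes-Cre line, whose driver gene is active in intermediate progenitors, so no treatment or genotype was compared and every comparison below lies between cell types of the same libraries. The labels do not say how many embryos went into each library, so p-values do not measure a spread between embryos. With the library as a block in the fit, they measure how far differences between types varied between these 2 libraries. That spread was estimated from all types in a fit together. The study asked which signals pass from somatostatin-positive (SST+) cortical interneurons (cINs) to the progenitors of the cortex, and Wnt ligands with their receptors are 1 family of such signals.

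Wnt proteins are lipid-modified ligands that act over short distances and are bound by the extracellular cysteine-rich domain of Frizzled receptors. With the co-receptors Lrp5 and Lrp6, many ligand and receptor pairs stabilise β-catenin, which then acts with TCF/LEF factors on target genes such as Axin2, a negative regulator of the pathway, while other pairs act through planar polarity and the cytoskeleton without β-catenin. In the embryonic forebrain, Wnt signalling is known for patterning the medial pallium, for balancing self-renewal and differentiation of radial glial cells (RGCs), for axon guidance through Fzd3 and for vessel ingrowth and barrier formation through Wnt7a and Wnt7b.

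The libraries held 46398156 and 64324236 unique molecular identifiers (UMIs, 1 per captured transcript) in 9049 and 13556 barcodes, and 40 barcodes occurred in both. After the filters on UMIs and mitochondrial share, 5966 and 10247 cells remained, with medians of 5706 and 4938 UMIs, and marker genes that are no members assigned 3506 and 5447 of them to a cell type. There were 17 types with at least 20 cells in each library, among them 262 and 407 RGCs, 236 and 323 intermediate progenitor cells (IPCs), 479 and 628 interneurons of the medial ganglionic eminence (MGE) and 40 and 94 endothelial cells. Although the tissue is labelled cerebral cortex, 200 and 299 cells carried the markers of striatal projection neurons. Each checked marker was highest in its own type except Cux2, which was highest in MGE interneurons, and Bcl11b, which was highest in striatal projection neurons. Levels are in CPM, the UMIs of a gene per 1000000 UMIs of a cell type in 1 library, given for library 1 and then library 2, or as mean ± SD over the 2 libraries.

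Free RNA in the droplets gives UMIs in cells that do not express a gene, so microglia and erythroid cells served as types that should lack the members. In microglia, 7 of the members (Wnt5a, Wnt8b, Fzd1, Fzd5, Fzd8, Fzd9 and Axin2) had no UMI, and Wnt7a, Wnt7b and Fzd3 lay at means of 2.35, 5.95 and 8.38 CPM. With globin UMIs left out, erythroid cells lay at 11.7 CPM for Wnt7a, 17.5 for Wnt7b, 66.1 for Fzd3, 11.2 for Fzd9, 8.99 for Axin2, 7.64 for Fzd8, 3.60 for Fzd5 and 1.35 for Wnt5a, and held no UMI of Wnt8b or Fzd1. The highest mean of every member except Fzd9 lay above these values. Axin2 in neural types and Wnt7a in excitatory neurons lay close to or below them. For Wnt7b the other types low in it, such as endothelial cells at 0.604 CPM and MGE interneurons at 3.27, lay well below the erythroid value.

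RefSeq promoter sequence of GRCm38.p6 was matched for 6 of the 10 members. The 250 bases upstream of the annotated start are shown for Wnt8b and Fzd5, for which 74.3% and 56.7% of the UMIs in gated cells lay in RGCs, and for Wnt7a, which RGCs shared with GABAergic neurons, 5′ to 3′ on the gene's strand, with capitals marking the CCAAT box motif or its reverse complement. The windows lie at chr19:44493222-44493471 (plus strand) for Wnt8b, chr1:64737751-64738000 (minus strand) for Fzd5 and chr6:91411354-91411603 (minus strand) for Wnt7a.
Wnt8b: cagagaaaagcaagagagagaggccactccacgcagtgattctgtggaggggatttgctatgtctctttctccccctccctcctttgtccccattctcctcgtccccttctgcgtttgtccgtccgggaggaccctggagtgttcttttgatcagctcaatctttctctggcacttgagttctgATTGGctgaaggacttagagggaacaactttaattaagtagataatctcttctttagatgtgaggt
Fzd5: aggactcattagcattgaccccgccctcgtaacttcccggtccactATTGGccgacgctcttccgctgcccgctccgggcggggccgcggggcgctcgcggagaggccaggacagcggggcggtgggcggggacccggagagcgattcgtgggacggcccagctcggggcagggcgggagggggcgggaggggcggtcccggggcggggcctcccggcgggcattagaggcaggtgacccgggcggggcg
Wnt7a: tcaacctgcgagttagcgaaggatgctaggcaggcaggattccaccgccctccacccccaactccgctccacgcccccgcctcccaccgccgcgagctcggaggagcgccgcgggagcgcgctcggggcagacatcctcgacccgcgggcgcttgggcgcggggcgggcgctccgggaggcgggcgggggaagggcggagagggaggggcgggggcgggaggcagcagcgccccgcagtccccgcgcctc
The Wnt8b window held 1 match to CCAAT, 66 bases from the start, and the Fzd5 window held 1 match, 204 bases from the start. The motif was searched on both strands and occurs in 33.8% of the 32851 promoters of that length. The windows differed in base composition, with 48.4% G or C and 5 CpG dinucleotides for Wnt8b, 76.4% and 32 for Fzd5 and 77.6% and 34 for Wnt7a, against a median of 52.4% G or C over all promoters. The TCF/LEF motif CTTTGAT, searched on both strands and present in 3.21% of all promoters, was in none of the 6 windows.

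Across the 17 types of the main gates, each of the 4 ligands had its highest mean in a different type, though several types held more than 1 of them. Wnt7a was highest in MGE interneurons and was also found in RGCs, Wnt7b was highest in Cajal-Retzius cells and excitatory neurons and was also found in RGCs and IPCs, Wnt5a was highest in fibroblasts and interneurons of the caudal ganglionic eminence (CGE) and was also found in IPCs, and most UMIs of Wnt8b lay in a few RGCs. Among the receptors, Fzd8, Fzd5 and Fzd9 had their highest means in RGCs, Fzd1 in excitatory neurons, and Fzd3 was found in every neural type. Axin2 was highest in pericytes and fibroblasts. In what follows each gene is compared with itself across types, since levels of different genes are not on 1 scale here.

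**Figure D1:**
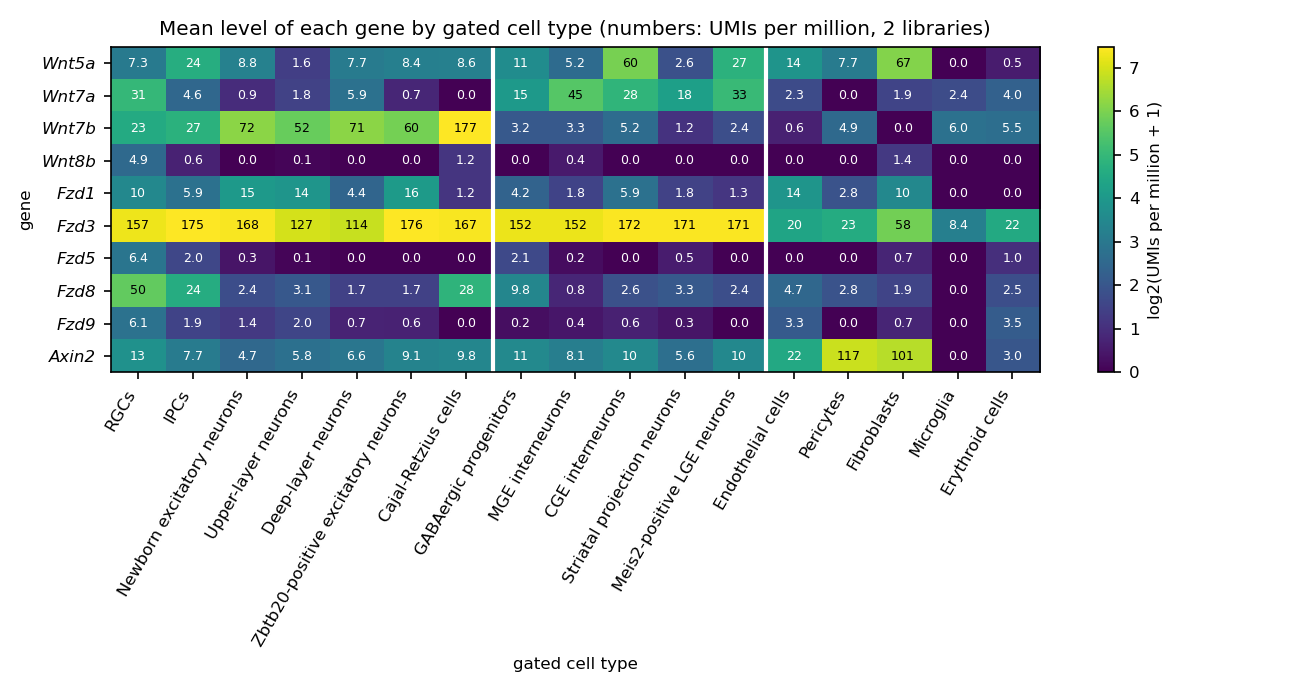
Heat map of the mean level of each of the 10 genes (rows) in each of the 17 gated cell types (columns), coloured by log2(CPM + 1) and printed as mean CPM over the 2 libraries. Wnt7a and Wnt7b peak in different columns (44.8 in MGE interneurons and 177 in Cajal-Retzius cells), Fzd8 peaks in RGCs at 50.2 and Axin2 in pericytes at 117.

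Wnt7a (ENSMUSG00000030093, chromosome 6, 91363981 to 91411353, GRCm38.p6) encodes a ligand that signals mainly through β-catenin in vessels and progenitors. It was detected with 648 UMIs in gated cells, of which 31.9% lay in MGE interneurons and 25.5% in RGCs. MGE interneurons held 45.1 and 44.4 CPM, RGCs 26.1 and 35.3, CGE interneurons 37.7 and 19.2, and Meis2-positive neurons of the lateral ganglionic eminence (LGE) 37.6 and 28.0. The 2 MGE values lay above those of every other type, and the next 3 types overlapped each other. This order depended on the gates. With stricter gates Meis2-positive LGE neurons stood highest, at a mean of 44.3 CPM against 38.5 in MGE interneurons. Striatal projection neurons held 20.6 and 14.6 CPM and GABAergic progenitors 13.3 and 16.8. All excitatory types lay lower, with deep-layer neurons at 6.73 and 5.07, IPCs at 3.02 and 6.18, upper-layer neurons at 1.27 and 2.34 and newborn excitatory neurons at 0.929 and 0.920. Among MGE interneurons, 77 of 479 and 100 of 628 cells had a Wnt7a UMI (16.1%, 95% Wilson interval 13.1 to 19.6, and 15.9%, 13.3 to 18.99), against 0.770% and 1.47% of upper-layer neurons and 0 of 23 and 2 of 68 microglia. The share of RGCs with a UMI, 21.0% and 19.2%, was higher than that of MGE interneurons while their CPM was lower, so no order of these types was read from shares. In cells thinned to 1500 UMIs, 7.35% of MGE interneurons, 3.49% of RGCs and 0.159% of upper-layer neurons had a UMI. Intervals on shares and ratios, and bounds from a count of 0, cover counting error only and treat cells or UMIs as independent.

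Wnt7b (ENSMUSG00000022382, chromosome 15, 85535437 to 85581821), a ligand closely related to Wnt7a, was detected with 2153 gated UMIs and was spread over the excitatory lineage. Cajal-Retzius cells, the reelin-secreting cells of the marginal zone, held 140 and 214 CPM, newborn excitatory neurons 75.3 and 68.1, deep-layer neurons 75.1 and 66.7, Zbtb20-positive excitatory neurons 60.2 and 58.9 and upper-layer neurons 54.4 and 49.7. The Cajal-Retzius values stood above all others, though they came from 24 and 45 cells. IPCs held 22.9 and 30.1 CPM and RGCs 22.0 and 23.6, and these progenitors did not differ from each other beyond their spread. The GABAergic types lay from 1.15 (striatal projection neurons) to 5.24 CPM (CGE interneurons), at or below the 5.95 of microglia, and fibroblasts held no UMI. Wnt7b was found in 39.7% and 31.9% of newborn excitatory neurons and in 1.46% and 1.27% of MGE interneurons. In thinned cells the shares were 10.9% and 0.527%.

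Wnt5a (ENSMUSG00000021994, chromosome 14, 28504543 to 28527448), a ligand known mainly for signalling without β-catenin, was detected with 598 gated UMIs in cells of different lineages. Fibroblasts held 73.3 and 61.0 CPM and CGE interneurons 68.9 and 51.6, and these ranges overlapped. Meis2-positive LGE neurons held 35.2 and 19.1 CPM and IPCs 26.8 and 21.2, again overlapping. RGCs lay at 10.4 and 4.16, below IPCs in both libraries, and upper-layer neurons at 1.27 and 1.95. IPCs were the neural type of the excitatory lineage with the highest mean, 24.0 ± 3.93 CPM (SD, n = 2 libraries), with 15.3% and 11.1% of cells carrying a UMI.

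Wnt8b (ENSMUSG00000036961, chromosome 19, 44493472 to 44514273), a ligand known from the cortical hem and the medial pallium, was rare, with 35 gated UMIs in all. RGCs held 26 of them, 74.3%, and lay at 4.97 and 4.85 CPM. These came from few cells, since the 12 UMIs of library 1 lay in 3 of 262 RGCs and the 14 of library 2 in 9 of 407. IPCs held 3 UMIs, MGE interneurons and fibroblasts 2 each, and Cajal-Retzius cells and upper-layer neurons 1 each. In the 11 other types it was not detected, which for the 193 and 321 GABAergic progenitors allows a share of cells with a UMI of up to 1.55% and 0.935%.

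**Figure D2:**
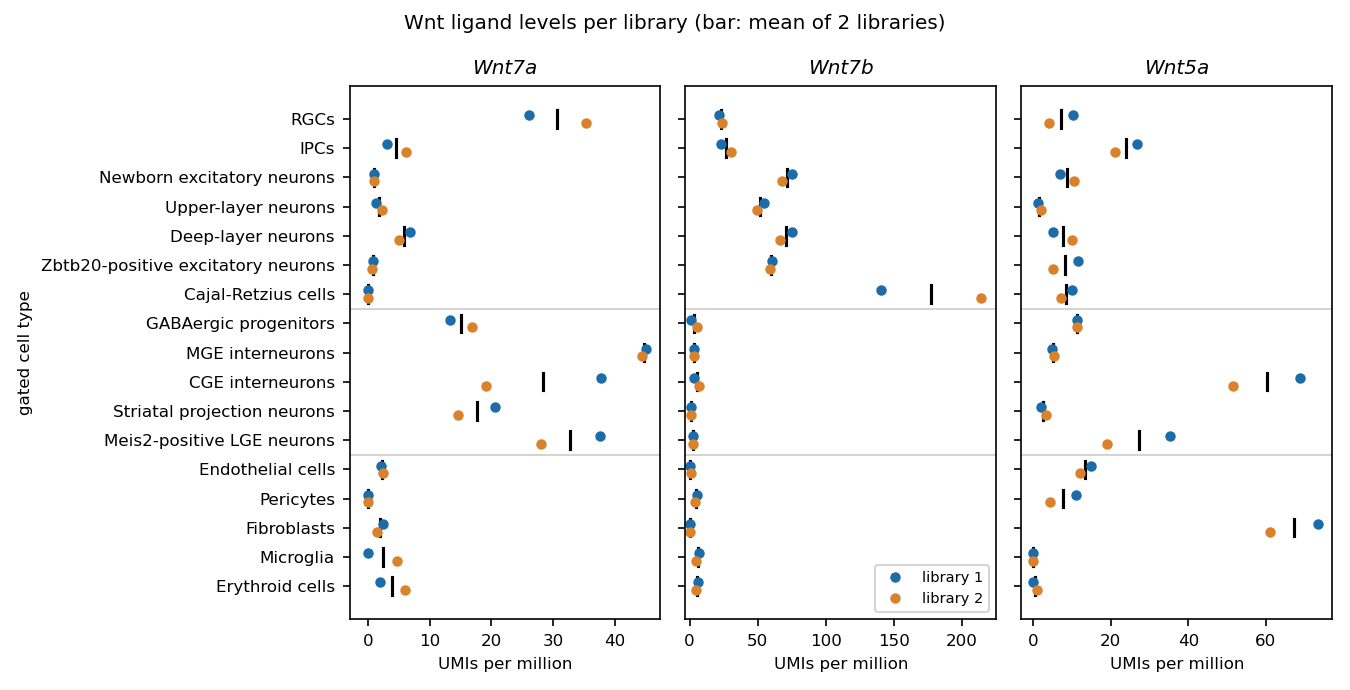
Level of Wnt7a, Wnt7b and Wnt5a in CPM (horizontal axes, 1 panel a gene) in each gated type (vertical axis), with a point for each of the 2 libraries and a bar for their mean. Wnt7a points lie above 40 in MGE interneurons, Wnt7b points above 45 in the 4 types of excitatory neurons and in Cajal-Retzius cells, and Wnt5a points above 50 in CGE interneurons and fibroblasts.

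Fzd8, a receptor that couples to β-catenin and is known from progenitors of the forebrain, was highest in RGCs and intermediate in the other progenitors. RGCs held 46.4 and 54.0 CPM, IPCs 22.5 and 24.7 and GABAergic progenitors 10.1 and 9.49, without overlap between the 3. Upper-layer neurons held 3.16 and 3.12 CPM, deep-layer neurons 2.59 and 0.845 and MGE interneurons 0 and 1.52. Cajal-Retzius cells were an exception among neurons, at 35.0 and 21.7 CPM from 7 and 9 UMIs. RGCs carried 49.4% of the 543 gated UMIs, and 31.3% and 26.8% of them had a UMI (9.37% when thinned), against none of the 23 and 68 microglia.

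Fzd5 (ENSMUSG00000045005, chromosome 1, 64730558 to 64737750), a β-catenin-coupled receptor known from eye and forebrain progenitors, was rare and also lay in RGCs. With 34 of 60 gated UMIs, RGCs stood at 6.63 and 6.23 CPM, above GABAergic progenitors at 2.54 and 1.72 and IPCs at 1.73 and 2.32, whose ranges overlapped. Each remaining type held at most 3 UMIs, and in 8 types none was found. Fzd9 (ENSMUSG00000049551, chromosome 5, 135248938 to 135251047), a receptor described in the developing hippocampus, differed between the libraries, with 2.90 and 9.35 CPM in RGCs from 7 and 27 UMIs. Erythroid cells held 4.01 and 2.96 CPM of all their UMIs, from 2 and 3 UMIs, so the RGC values did not stand apart from theirs. Endothelial cells lay at 4.27 and 2.42 CPM, from 2 UMIs in each library. GABAergic progenitors lay lower, at 0 and 0.431 CPM, and microglia held none. Upper-layer neurons had 1.48 and 2.47 CPM of Fzd9.

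Fzd1 (ENSMUSG00000044674, chromosome 5, 4753839 to 4758216), a receptor that binds several Wnts, was highest in the excitatory lineage and vessels. Zbtb20-positive neurons held 11.55 and 20.1 CPM, newborn excitatory neurons 17.7 and 13.1, endothelial cells 17.1 and 10.9 and upper-layer neurons 14.97 and 12.7, all overlapping. Deep-layer neurons, at 4.14 and 4.65, and MGE interneurons, at 1.0 and 2.66, lay below them. Fzd3 (ENSMUSG00000007989, chromosome 14, 65192441 to 65262463), a planar polarity receptor needed for major axon tracts, was present in all 12 neural types at means from 114 CPM in deep-layer neurons to 176 in Zbtb20-positive neurons. Its RGC values of 155 and 158 and MGE interneuron values of 153 and 151 lay close together, and among neural types upper-layer neurons (128 and 126) and deep-layer neurons (108 and 121) lay lowest. Outside them Fzd3 fell to 58.1 ± 12 CPM in fibroblasts, 19.8 ± 12.9 in endothelial cells and 8.38 ± 8.53 in microglia (SD, n = 2 libraries).

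**Figure D3:**
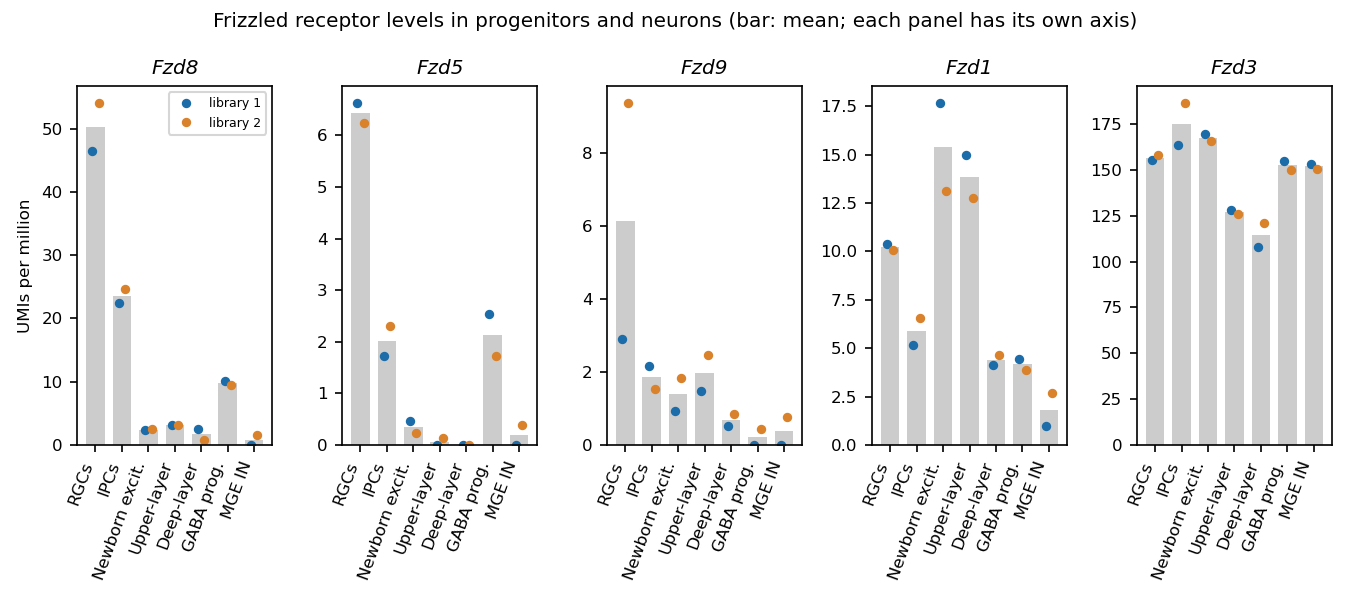
Level of the 5 Frizzled receptors in CPM (vertical axes, which differ between panels) in RGCs, IPCs, 3 types of excitatory neurons, GABAergic progenitors and MGE interneurons, with grey bars for the mean and a point for each library. Fzd8 and Fzd5 stand highest in RGCs in both libraries, Fzd9 in RGCs differs between libraries (2.90 and 9.35), Fzd1 is higher in upper-layer than deep-layer neurons, and Fzd3 stays between 108 and 186.

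Axin2 (ENSMUSG00000000142, chromosome 11, 108917828 to 108950783), the scaffold protein whose transcript is a common readout of β-catenin signalling, was highest outside the neural lineage. Pericytes held 89.1 and 146 CPM and fibroblasts 109 and 93.0, and these overlapped. Endothelial cells differed between the libraries, at 10.7 and 32.6. The 12 neural types ranged from 4.74 CPM in newborn excitatory neurons to 12.7 in RGCs, with RGCs at 11.6 and 13.9, around the 8.99 that erythroid cells held without globin.

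Comparisons between types were made with edgeR's quasi-likelihood test on UMIs summed per library and type, with Benjamini-Hochberg adjustment over all 14696 genes tested, and a call is an adjusted p under 0.05. Fold changes are fitted log2 values with their standard error (SE), first type minus second, and n is 2 libraries throughout. Genes were tested if at least 2 of the sums reached 10 UMIs. A gene that needed the sums of its higher type to reach this filter was selected for being high there. Such genes are given as values with no test. The counts, shares and medians given with each comparison below leave them out, for members and all genes alike. Among the members these were Wnt8b, Fzd5 and Fzd9 in each comparison of RGCs with another type, Fzd9 also between MGE interneurons and excitatory neurons and between upper and deep layers, and Wnt5a and Fzd1 between cycle states. The other genes of the pathway were followed through a list of 70, of which 48 were tested.

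RGCs and IPCs, the consecutive progenitors of the excitatory lineage, differed in ligands and in Fzd8. Wnt7a was higher in RGCs by 2.66 ± 0.33 on the log2 scale (edgeR adjusted p = 1.55e-08) and Fzd8 by 1.04 ± 0.24 (adjusted p = 0.000747). Wnt5a was lower in RGCs by a log2 change of -1.80 ± 0.34 (adjusted p = 3.51e-05). So 2 of 7 members were higher and 1 was lower, beside 15.5% and 13.4% of all genes. Their median log2 difference was 0.67, against 0.01 over all genes. Wnt7b, Fzd1, Fzd3 and Axin2 did not pass the test. Wnt8b lay at 4.97 and 4.85 against 1.30 and 0 CPM, and its 3 UMIs in IPCs came from 1 cell of library 1. Of the pathway list, 13 genes were higher in RGCs and 7 lower. Among the higher were 2 of the 4 TCF/LEF factors, Tcf7l1 (92.4 and 70.3 against 11.7 and 8.11 CPM) and Tcf7l2 (130 and 138 against 33.7 and 22.8), and Wls, the carrier that Wnts need for secretion (17.8 and 14.9 against 0.432 and 3.09). The antagonist-related gene Dkk3 (log2 3.49 ± 0.37) and the R-spondin receptor Lgr4 (3.48 ± 0.43) had the largest differences among called pathway genes with at least 10 CPM in the higher type and the same direction in both libraries.

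Set against excitatory neurons, taken as the mean of upper-layer and deep-layer neurons on the scale of the fit, RGCs had more Fzd8, Wnt7a and Axin2 and less Wnt7b. So 3 of 7 members were higher and 1 was lower, and the share called over all genes was 30.6% higher and 30.1% lower, so that this contrast moved most genes. Fzd8 was higher by 4.29 ± 0.27 on the log2 scale (edgeR adjusted p = 2.69e-18), Wnt7a by 3.04 ± 0.26 (adjusted p = 1.48e-13) and Axin2 by 0.89 ± 0.28 (adjusted p = 0.00541). Fzd9 had log2 ratios of CPM plus 1 of 1.01 in library 1 and 2.03 in library 2, on RGC levels that did not stand apart from erythroid cells. Fzd5 and Wnt8b held 34 and 26 UMIs in RGCs against 1 each in upper-layer and none in deep-layer neurons. With 3 UMIs over the group as floor, these counts give at least 9.19-fold for Fzd5 and 7.03-fold for Wnt8b against deep-layer neurons. These are values and no test. Wnt7b was lower in RGCs by a log2 change of -1.54 ± 0.16 (adjusted p = 1.97e-11). The members' median was 0.78 and that of all genes -0.01. On the pathway list, 22 genes were higher and 6 lower, with Tcf7l2 at 5.66 ± 0.21, Tcf7l1 at 5.22 ± 0.29, the receptor Fzd2 at 3.29 ± 0.17 (109 and 100 against 9.25 and 11.8 CPM) and the secreted Wnt-binding proteins Sfrp1 (322 and 311 against 31.5 and 29.4 CPM) and Sfrp2 (35.6 and 33.9 against 3.53 and 2.23 CPM).

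Within RGCs, cycling cells (132 and 153, by S and G2/M genes) were compared with non-cycling cells (100 and 192). Wnt7b was lower in cycling RGCs while Wnt7a was not called. Wnt7b lay at 11.1 and 8.18 CPM in cycling against 37.3 and 43.6 in non-cycling RGCs, a log2 change of -2.04 ± 0.33 (edgeR adjusted p = 9.74e-09). Wnt5a, which reached the filter only through non-cycling RGCs, lay at 2.79 and 0.743 against 19.98 and 8.55 CPM, from 4 and 1 against 15 and 10 UMIs. Wnt7a stood at 25.8 and 35.7 against 26.6 and 35.1 CPM, a log2 difference of 0.01 ± 0.27. Smaller differences were called for Fzd8 (41.1 and 43.8 against 57.3 and 68.4 CPM, adjusted p = 0.0418) and Fzd3 (141 and 131 against 177 and 175 CPM, adjusted p = 0.0387). In all, 3 of 5 members were lower and none was higher, beside 12.5% and 12.3% of 8423 genes. These calls depended on the test, since DESeq2 called none of the 3 (adjusted p = 0.0721 for Wnt7b), and those of Fzd8 and Fzd3 were also lost without the filter on low counts, with stricter gates and without the library block (adjusted p from 0.0601 to 0.34). Wnt8b, Fzd5 and Fzd9 were too low to be tested, with Fzd5 at 4.87 and 2.23 against 10.7 and 11.1 CPM. Neuronal markers moved in part with these groups. The 8 deep-layer genes summed to 592 and 559 CPM in cycling against 1032 and 958 in non-cycling RGCs, and the 8 Cajal-Retzius genes to 14.6 and 14.1 against 37.3 and 40.2, with 4 and 2 of them at 0, whereas the 6 excitatory genes summed to 45.3 and 65.4 against 45.3 and 53.0. The 8 CGE genes were lower in cycling RGCs too, at 167 and 140 against 232 and 211 CPM. The 5 upper-layer genes went the other way, at 617 and 660 against 531 and 503. The 4 IPC genes differed between the libraries, at 121 and 140 against 286 and 110. The part of these markers in the result was not tested. Of 26 pathway genes, 1 was higher and 4 were lower, among them Lgr4 (9.05 and 17.8 against 34.6 and 35.9 CPM) and Tcf7l1 (88.4 and 46.8 against 104 and 98.3 CPM). Wls and the Wnt-binding protein Sfrp5 reached the filter only through non-cycling RGCs and lay at 11.1 and 5.20 against 28.0 and 26.5 CPM and at 0.696 and 0 against 18.6 and 11.1 CPM.

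RGCs of the pallium also differed from GABAergic progenitors of the ganglionic eminences. Of 7 members, 4 were higher in RGCs and none was lower, beside 17.8% and 19.8% of all genes, with a median of 0.97 against -0.03 over all genes. Wnt7b lay at 22.0 and 23.6 CPM against 1.27 and 5.17 and was higher by 2.60 ± 0.36 on the log2 scale (edgeR adjusted p = 7.14e-08), with log2 ratios of CPM plus 1 of 3.34 in library 1 and 1.99 in library 2. Fzd8 was higher by 2.32 ± 0.29 (adjusted p = 1.08e-08), Wnt7a by 0.97 ± 0.28 (adjusted p = 0.00509) and Fzd1 by 1.25 ± 0.44 (adjusted p = 0.0213, lost with stricter gates at 0.147). Wnt8b and Fzd9 are given as values with no test. Wnt8b held 12 and 14 UMIs in RGCs, from 3 and 9 cells, and none in GABAergic progenitors. Fzd9 held 7 and 27 UMIs in RGCs against 0 and 1, so most of its UMIs came from library 2. Fzd3 was not called, with 155 and 158 against 155 and 150 CPM. The pathway list had 17 genes higher and 8 lower. Among the called genes with at least 10 CPM in the higher type and the same direction in both libraries, the largest difference was that of Tcf7l1 (3.87 ± 0.35), followed by Rspo3, Dkk3, Sfrp1 and Sfrp2. Rspo3, a secreted enhancer of Wnt signalling, lay at 2.90 and 27.7 CPM in RGCs, so that its difference rested on library 2. Wls was among the lower genes. The gates also set a difference in cycling, since GABAergic progenitors were required to express cell cycle genes and RGCs were not. The 14 cell cycle genes summed to 4596 and 4704 CPM in GABAergic progenitors and to 2539 and 2348 in RGCs. Cycling RGCs alone held 11.1 and 8.18 CPM of Wnt7b and 41.1 and 43.8 of Fzd8. The part of cycling in the differences of Wnt7b and Fzd8 was not tested.

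**Figure D4:**
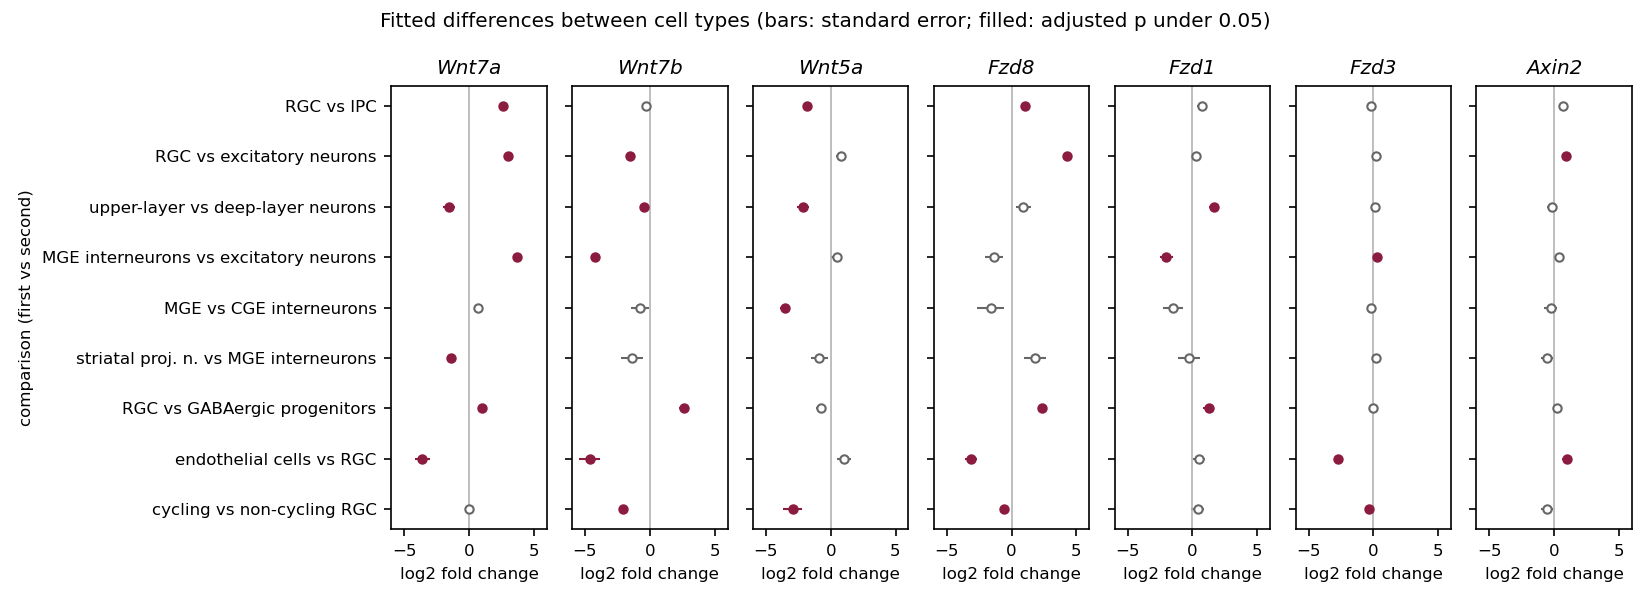
Fitted log2 fold changes (horizontal axes, 1 panel a gene) of the members in the comparisons between cell types (vertical axis), with bars for the standard error and filled points where the adjusted p was under 0.05. Wnt5a and Fzd1 between cycle states reached the count filter only through their higher group. Their points there are no test, and the fill of Wnt5a is not to be read as a call. Wnt7a and Wnt7b lie on opposite sides of 0 for MGE interneurons against excitatory neurons (3.67 and -4.23) and Fzd8 lies to the right in the comparisons of RGCs with IPCs, excitatory neurons and GABAergic progenitors.

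MGE interneurons, the class that holds the SST+ cINs, had more Wnt7a and less Wnt7b than excitatory neurons. Wnt7a lay at 45.1 and 44.4 CPM against 4.0 and 3.70, a log2 difference of 3.67 ± 0.25 (edgeR adjusted p = 4.24e-16). Wnt7b lay at 3.51 and 3.04 CPM against 64.8 and 58.2, a difference of -4.23 ± 0.26 (adjusted p = 4.72e-18). The library values of these paralogs do not overlap between the neuron classes and run in opposite directions. Fzd1 was lower in MGE interneurons (-2.01 ± 0.48, adjusted p = 0.00103) and Fzd3 slightly higher (0.29 ± 0.11, adjusted p = 0.0481), a call that was lost without the filter on low counts, with stricter gates and without the library block (adjusted p = 0.139, 0.102 and 0.0995). In all, 2 of 9 members were higher and 2 lower, beside 14.0% and 13.9% of all genes, with a median of 0.35 against 0.0021. The pathway list had 8 genes higher and 7 lower. Wls was at 63.7 and 58.5 CPM in MGE interneurons against 2.14 and 5.07 in excitatory neurons (4.20 ± 0.23), and the Wnt5a receptor Ror2 at 74.2 and 72.9 against 4.39 and 5.46 (3.92 ± 0.21). The 2 R-spondin genes tested, of 4 listed, ran the other way, with Rspo3 at 0.502 and 4.18 against 125 and 120 CPM (-5.57 ± 0.43) and Rspo2 at 1.0 and 4.18 against 14.6 and 13.2.

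Among GABAergic neurons, Wnt5a differed between MGE and CGE interneurons and Wnt7a between MGE interneurons and striatal projection neurons. Between MGE and CGE interneurons Wnt5a was the member called, at 5.02 and 5.32 against 68.9 and 51.6 CPM (-3.51 ± 0.37, edgeR adjusted p = 1.07e-09), so that 1 member was lower and none higher, beside 2.66% and 2.53% of all genes. Wnt7a differed by 0.69 ± 0.31 (adjusted p = 0.274). The members' median was -0.44 against 0.02. Of the pathway list 2 genes were higher and 4 lower in MGE interneurons. Ror2 was higher in them (74.2 and 72.9 against 41.0 and 42.0 CPM), and Draxin, a secreted Wnt antagonist and guidance cue, was lower (64.7 and 48.2 against 148 and 68.4). Striatal projection neurons had less Wnt7a than MGE interneurons, at 20.6 and 14.6 CPM (-1.37 ± 0.29, adjusted p = 0.00069), the single member called, beside 5.34% lower and 5.07% higher over all genes, with medians of -0.41 and -0.01. On the pathway list Ror2 was lower in them, at 0 and 4.64 CPM, and Fzd2 higher, at 20.7 and 31.1 against 11.54 and 11.4.

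Between the layers of excitatory neurons, Fzd1 and 3 ligands differed. Upper-layer neurons had more Fzd1, 14.97 and 12.7 against 4.14 and 4.65 CPM in deep-layer neurons (1.63 ± 0.37, edgeR adjusted p = 0.00125). They had less Wnt5a, 1.27 and 1.95 against 5.18 and 10.1 CPM (-2.16 ± 0.46, adjusted p = 0.000451), less Wnt7a, 1.27 and 2.34 against 6.73 and 5.07 (-1.57 ± 0.45, adjusted p = 0.0131, with the deep-layer values below the 11.7 of erythroid cells) and less Wnt7b, 54.4 and 49.7 against 75.1 and 66.7 (-0.44 ± 0.14, adjusted p = 0.0351). The Wnt7b call was lost with DESeq2, without the filter on low counts, with stricter gates and without the library block (adjusted p = 0.0649, 0.117, 0.0603 and 0.0704). Of 9 members, 1 was higher and 3 were lower, beside 5.02% and 8.20% of all genes, and with stricter gates only the Wnt5a call was kept. The median of the 9 was 0.16 and that of all genes 0.01, the positive sign coming from members that were not called. The pathway list had 5 genes higher and 5 lower. Apcdd1, a membrane-bound Wnt inhibitor, was lower in upper-layer neurons (2.74 and 2.21 against 18.1 and 15.6 CPM), and Fzd2 (15.4 and 14.7 against 3.11 and 8.87) and Sfrp1 (37.5 and 38.1 against 25.4 and 20.7) were higher.

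Endothelial cells, which receive Wnt7a and Wnt7b from the surrounding neuroepithelium, held little of these ligands themselves. Wnt7a was found with 3 UMIs in endothelial cells against 165 in RGCs (RGC to endothelial ratio 13.5, counting interval 4.52 to 65.9, edgeR adjusted p = 2.69e-06) and Wnt7b with 1 against 121 (29.6, 5.21 to 1179, adjusted p = 3.19e-06). Fzd8 (2.13 and 7.25 CPM, log2 difference from RGCs -3.12 ± 0.45, edgeR adjusted p = 1.8e-07) and Fzd3 (10.7 and 29.0 CPM, -2.71 ± 0.25, edgeR adjusted p = 1.57e-12) were lower. Fzd5 and Wnt8b were not detected, which with the floor of 3 UMIs gives RGCs at least 2.77-fold and 2.12-fold. These are values and no test. The log2 ratios of CPM plus 1 of Fzd3, Fzd8 and Wnt7b in library 1 and library 2 were -3.74 and -2.41, -3.92 and -2.74, and -4.52 and -3.48. Axin2 was called higher in endothelial cells (1.0 ± 0.36, adjusted p = 0.0271), which rested on library 2, where it lay at 32.6 against 13.9 CPM, while library 1 had 10.7 against 11.6. Without the cells of highest doublet scores the log2 difference was 0.61 and the call was lost (adjusted p = 0.285). Thus 4 of 7 members were lower and 1 higher, beside 21.1% and 15.8% of all genes, with a median of -2.71 against -0.19.

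The pathway list was split between endothelial cells and RGCs, with 13 genes higher and 10 lower in endothelial cells, against 15.8% and 21.1% of all genes. Among the other Frizzled receptors, Fzd6 was higher, Fzd2 was lower and Fzd7 was not called. Fzd6 lay at 122 and 150 CPM against 3.31 and 2.77 in RGCs (5.57 ± 0.35, edgeR adjusted p = 9.06e-17). Fzd4, the norrin receptor of brain vessels, reached the filter only through endothelial cells and lay at 36.3 and 32.6 CPM against 1.24 and 1.73. Adgra2, which with Reck forms the co-receptor for Wnt7a and Wnt7b, lay at 34.2 and 51.9 against 0 and 1.04 (6.21 ± 0.75, adjusted p = 3.14e-09), whereas Reck itself was at 12.8 and 7.25 against 18.2 and 19.05. Of the 4 TCF/LEF factors 2 were higher, Lef1 (245 and 272 against 11.6 and 12.1 CPM) and Tcf7 (49.1 and 42.3 against 0.829 and 1.04), while Tcf7l1 (59.8 and 72.5 against 92.4 and 70.3) and Tcf7l2 (119.5 and 90.6 against 130 and 138) did not pass the test. The feedback genes Apcdd1 (416 and 487 against 5.80 and 6.23) and Nkd1 (186 and 167 against 8.70 and 10.7) were higher too. All the values of these 6 called genes in endothelial cells lay above those of RGCs in both libraries. The lower genes included Fzd2 (4.27 and 2.42 against 109 and 100 CPM), the co-receptor Ror2 (4.27 and 2.42 against 20.3 and 18.7), Lgr4 (4.27 and 1.21 against 19.1 and 24.6) and Sfrp2 (0 and 1.21 against 35.6 and 33.9).

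**Figure D5:**
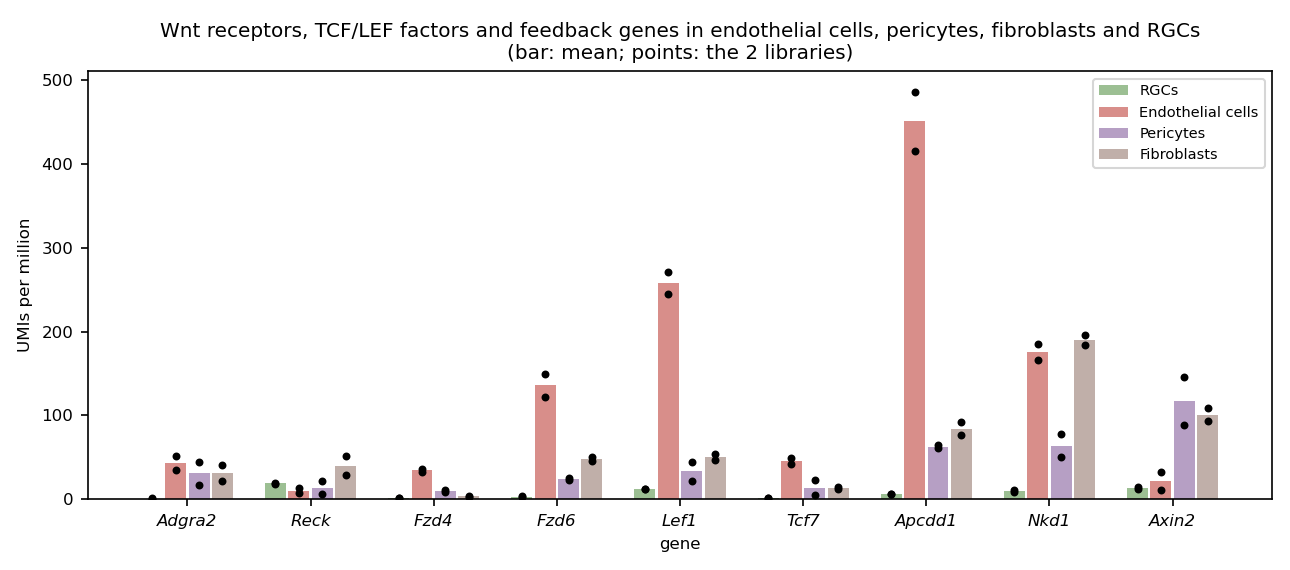
Level of Wnt receptors, TCF/LEF factors and feedback genes in CPM (vertical axis) in endothelial cells, pericytes, fibroblasts and RGCs, with bars for the mean and a point for each of the 2 libraries. Apcdd1, Lef1, Fzd6, Tcf7 and Fzd4 stand highest in endothelial cells, and Axin2 in pericytes (117) and fibroblasts (101).

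The genes most like each member in their pattern were sought among 13716 genes by Pearson's r of log2(CPM + 1) over the 17 types, whose points share the 2 libraries and differ in depth. This is a description over types and carries no test. For Wnt7a these were Gm42695 (r = 0.91), Sox1ot (0.90) and Sox1 (0.89), for Wnt7b Cib2 (0.90), Gm13584 (0.88) and Tbr1 (0.88), and for Wnt5a Rgs16 (0.87), Mpdz (0.80) and Ldlrad3 (0.80). Fzd8 was most like Pax6os1 (0.89), Gca (0.89) and Col2a1 (0.88), Fzd3 like Hfm1 (0.97), Psip1 (0.96) and Cacng7 (0.96), and Fzd1 like Fgfr1 (0.84), Rnf217 (0.83) and Tsc22d1 (0.83). For Axin2 they were Akap12 (0.94), Col26a1 (0.93) and Col5a2 (0.93). Sox1ot and Pax6os1 are transcripts named after their overlap with Sox1 and Pax6, which encode transcription factors of progenitors. Among these 7 members r ran from -0.39 for Wnt7a and Wnt7b to 0.64 for Wnt5a and Axin2.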

How the data were processed

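Libraries were made by the authors from papain-dissociated cortex with 10x Genomics chemistry. The deposited matrices hold raw UMI counts per gene and barcode, with no normalization. Their header names Cell Ranger 7.1.0, while the submitters' processing notes name version 7.0.0 and build mm10. Whether intronic reads were counted is not given in the sources used here. Such counting, and counting at the 3′ end, can act unequally on different genes, which was not tested, so genes were compared only with themselves.

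Cells with 1500 to 60000 UMIs and under 10% mitochondrial UMIs were kept. Types were assigned by thresholds on marker genes, none of them a member, and 0 cells fell in several gates. The thresholds were set on the markers of these cells, and 58.8% and 53.2% of cells matched a gate. The glial-fated type (18 and 31 cells) was left out of the fit. Because the automatic doublet call of Scrublet marked 0 and 380 cells, it was not used, and removal of the 432 and 1111 cells of highest score is an alternative. UMIs were summed per library and type, and genes reaching 10 counts in 2 or more sums were tested with edgeR 4.0.16 in R 4.3.3 (quasi-likelihood, TMM), with the library as a block because every type came from the same 2 libraries. The fit of cycling and non-cycling RGCs used 4 sums. DESeq2 1.42.0, RLE size factors, no filter on low counts, stricter gates, no block, only the compared types in the fit and each library alone were alternatives. On simulated counts for RGCs against IPCs (14731 genes), 59% of genes changed by 1 on the log2 scale and 95% of those changed by 2 were recovered, and 6.1% of calls were false. For cycling against non-cycling RGCs (10308 genes) these were 62%, 94% and 6.02%. The simulation gave every gene the same fixed dispersion and no difference between libraries. Neither was estimated from these data, so the rates describe the simulated counts and are no error rates of the calls reported here. Shares have 95% Wilson intervals, and in ratios a count of 0 was bounded at 3 counts. Python 3.11.15, scanpy 1.11.5 and scipy 1.17.1 were used.

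The members and gene lists were chosen with earlier results of these data known. Named genes were the 10 members in every type and, per comparison, at most 5 called pathway genes, ranked by fold change among those that reached 10 CPM in the higher type and moved alike in each library. For likeness they were the 3 genes of highest r for each member with at least 10 CPM in a type. Fzd4, Fzd7, Fzd2, Lef1, Tcf7l1, Tcf7l2, Nkd1, Reck, Ror2 and Lgr4 in endothelial cells, and Wls in the comparison with GABAergic progenitors, lie outside this rule and were named after their values were seen.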

Additional observations from a re-analysis of the deposited data

How the results depend on the processing

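Of the 29 calls for members that reached the count filter without their higher type, 20 were kept in every one of the 7 alternative settings in which they were tested. RLE size factors lost none, a fit of only the compared types lost none of the 26 tested in it, removal of high doublet scores lost 1, no replicate block, no filter on low counts and DESeq2 lost 4 each, and stricter gates lost 7. The 9 other calls are left out here. Counts of called members on this basis stayed within 1.5 times of the reported ones except in 2 comparisons. Between upper-layer and deep-layer neurons stricter gates left 1 of 4 calls. Between cycling and non-cycling RGCs, with 3 calls, DESeq2 left 0 (1 at an unadjusted p under 0.05), and no filter on low counts, stricter gates and the fit without the replicate block left 1 each. The totals that follow are over all genes tested and include those that needed their higher type to reach the count filter. Calls between MGE and CGE interneurons went from 771 to 448 with stricter gates, and those between striatal projection neurons and MGE interneurons from 1562 to 827. Calls between cycling and non-cycling RGCs went from 2736 to 548 with DESeq2, where the share of calls that were higher went from 52.7% to 72.8%. The cause was not tested. Each library alone allows no test but kept the sign of 28 to 29 of the calls. The log2 ratio of Axin2 (CPM plus 1) in endothelial cells against RGCs was 1.18 without replicate 1 and -0.11 without replicate 2. The type with the highest level was the same for 7 of 10 members with stricter gates, 10 without high doublet scores, 9 with at least 3000 UMIs per cell and 7 to 9 in each library alone. Under stricter gates it moved to Meis2-positive LGE neurons for Wnt7a and Fzd3 and to CGE interneurons for Wnt5a. With 2 libraries and few UMIs, Wnt8b, Fzd5 and Fzd9 are limited by depth, and differences below their intervals were not detectable.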

Other observations

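Among the 70 other genes of the pathway list, 52 reached 10 CPM in at least 1 type, and 22 of these had their highest mean in fibroblasts, 6 in endothelial cells, 5 in RGCs and 4 in Cajal-Retzius cells. Fibroblasts held further ligands. Wnt6 lay at 89.9 and 56.9 CPM in fibroblasts, against 3.60 in the next type, microglia, and Wnt9a at 35.5 and 44.4 CPM against 3.77 in RGCs. Wnt4 lay at 225 and 143 CPM, above Cajal-Retzius cells at 55.1 and 40.9. The β-catenin target Sp5 (49.7 and 31.9 CPM) and Rnf43, a ubiquitin ligase that removes Frizzled receptors (21.3 and 11.1 CPM), were also highest in fibroblasts. Pericytes held 117 and 236 CPM of the antagonist Dkk2, against 9.46 and 91.6 in fibroblasts. These levels come from 33 and 66 fibroblasts and 23 and 36 pericytes and were not tested. The examples were chosen after their values were seen.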
